A study of Mus musculus with 4 samples.

Results

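Interferon response and RNA sensing genes were examined in mouse neural stem cells profiled by Nanopore long-read sequencing. The set held 39 genes chosen by symbol: 6 RNA sensors, 1 adaptor, 5 transcription factors, 11 effectors directed at RNA, 6 effectors at membranes or virus particles, a pair around the ubiquitin-like protein ISG15, a chemokine and an antigen-presenting subunit, and 6 other interferon-induced genes. Of these, 22 had an entry among the 14949 genes named in the deposited table and 17 did not. The study asked which splicing events depend on Tut1, which encodes the enzyme that uridylates U6 snRNA. The cells came from E12.5 mouse neocortex and grew with bFGF and EGF, and lipid nanoparticles (LNP) were applied for 3 days. Tut1f/f cells given an empty LNP (titled wild type) served as the control, without Cre mRNA. The other 3 libraries received LNP with mRNA for the Cre recombinase: Tut1 KO (genotype Tut1f/f), P53 KO (genotype p53f/f) and Tut1 and P53 KO (genotype Tut1f/f;p53f/f), the last called double KO here. Each group was 1 library, so the Cre mRNA was present in 3 libraries and absent from the only control, and no library carried Cre mRNA without a floxed gene. The labels do not say how many embryos or cultures stood behind a library.

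Cells sense foreign or misplaced RNA with helicases such as RIG-I and MDA5 in the cytosol, which signal through MAVS, and with Toll-like receptors in endosomes. Both routes activate IRF transcription factors, which induce type I interferons. Interferon then acts through its receptor, JAK kinases and factors such as STAT2 and IRF9, which act at an interferon-stimulated response element (ISRE) in the promoters of antiviral genes. In the study, the Cre mRNA contained N1-methylpseudouridine, a modified base used to lower recognition by these sensors.

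Promoter sequences are given for 3 members that the results turn on, to show where letters like an ISRE lie in them. Ifitm2 and Ifitm3 are neighbouring, similar genes that were both higher with Cre mRNA, and Mavs had the largest difference from the control among members with at least 50 reads. Each run spans 250 bases before to 50 bases after the RefSeq start on GRCm38.p6, written 5′ to 3′ along the gene, with the ISRE-like motif GAAANNGAAA, or its reverse complement TTTCNNTTTC, in capitals. They lie at chr7:140955912-140956211 (Ifitm2, minus strand), chr7:141010695-141010994 (Ifitm3, minus strand) and chr2:131233813-131234112 (Mavs, plus strand).
Ifitm2: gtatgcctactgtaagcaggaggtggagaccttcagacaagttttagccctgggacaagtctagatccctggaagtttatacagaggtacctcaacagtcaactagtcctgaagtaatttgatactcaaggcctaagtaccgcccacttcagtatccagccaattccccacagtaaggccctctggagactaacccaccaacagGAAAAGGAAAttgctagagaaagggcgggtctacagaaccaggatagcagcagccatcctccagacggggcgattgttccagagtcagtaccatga
Ifitm3: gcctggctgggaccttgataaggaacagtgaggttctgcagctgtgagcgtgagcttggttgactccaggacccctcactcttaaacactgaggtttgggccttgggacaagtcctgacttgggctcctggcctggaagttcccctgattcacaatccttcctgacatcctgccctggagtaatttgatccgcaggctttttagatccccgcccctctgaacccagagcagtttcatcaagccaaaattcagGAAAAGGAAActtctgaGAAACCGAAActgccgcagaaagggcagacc
Mavs: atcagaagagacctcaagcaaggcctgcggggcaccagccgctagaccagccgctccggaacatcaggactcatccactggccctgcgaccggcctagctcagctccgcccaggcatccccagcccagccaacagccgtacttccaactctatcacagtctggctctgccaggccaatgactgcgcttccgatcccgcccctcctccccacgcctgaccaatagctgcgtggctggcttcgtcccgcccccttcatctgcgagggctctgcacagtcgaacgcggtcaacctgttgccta
The Ifitm2 match begins 46 bases before the start and the Ifitm3 promoter has matches beginning 2 and 19 bases after it, while the Mavs run has none. RefSeq promoters were at hand for 29 of the 39 members, and 15 of these (51.7%) held the motif, against 3.99% of all 27025 genes with a promoter and 3.44% of all 32851 promoters. Of 112 other genes of the interferon pathway, described below, 94 had a promoter and 29 of these (30.9%) held the motif. Among members with an entry in the table it was in 10 of 18 (Ifitm2, Ifitm3, Eif2ak2, Ddx58, B2m, Bst2, Stat2, Isg15, Cxcl10 and Rsad2), and among those without one in 5 of 11 (Ifih1, Ifit1, Ifit3, Ifit3b and Oas1a). A letter match describes the sequence and does not show that a factor binds there.

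The libraries held 5125888 reads in the control, 4253498 in Tut1 KO, 4830314 in the library labelled P53 KO and 3936827 in the library labelled double KO, of which 17.2%, 30.2%, 28.9% and 27.3% named no gene. Levels below are CPM, reads per 1e6 gene reads after TMM scaling, with exact 95% Poisson intervals that cover counting error only. Tut1 itself had 37, 11, 14 and 27 reads in the same order, so it was low in the library labelled P53 KO and not low in the library labelled double KO. The deletion removes exon 2 from the mRNA, total reads need not fall, and exon 2 was not analysed here. Trp53 had 175, 67, 10 and 19 reads. Xist was at 0 in the control and in the library labelled double KO, with 44 and 49 reads in the remaining libraries, and the Y-linked Eif2s3y had 155 and 60 reads in the first pair and 0 in the others, so the source embryos differed in sex in a way that does not follow the Cre mRNA. Of 12 neural stem cell genes 10 were listed, with 36393 to 46756 reads together, of which Fabp7 gave 30043 to 39422, and Vim, Sox2 and Nes were among the rest. Microglia, the resident immune cells of the brain, had 1 of 12 markers listed (P2ry12, 3, 2, 3 and 1 reads), with Aif1, Cx3cr1, Csf1r and Ptprc not listed. No endothelial marker of 6 was listed, and 1 of 7 mural and fibroblast markers had a single read. Neuron markers held 64 to 92 reads (4 of 5 listed). Astrocyte markers held 197, 36, 24 and 93 reads (3 of 4 listed), of which Aldh1l1 gave 187, 16, 11 and 71, while S100b had 10, 16, 10 and 21 and Aqp4 had 0, 4, 3 and 1. Fewer cells of a type and less RNA per cell cannot be told apart in these bulk libraries.

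In reads the whole set was a small part of each library: 1301 in the control, 1423 in Tut1 KO, 1675 in the library labelled P53 KO and 1498 in the library labelled double KO, or 307, 479, 488 and 523 per 1e6 gene reads. B2m and Ifitm2 together gave most of them. Many genes that interferon induces were scarce or not listed. Not listed were the sensors Tlr7, Ifih1 (MDA5) and Zbp1, the factors Irf7 and Irf9, the RNA-binding Ifit1, Ifit3 and Ifit3b, the 2′-5′ oligoadenylate synthetase family Oas1a, Oas2, Oasl1 and Oasl2, the dynamin-like GTPases Mx1 and Mx2, and Ifi44, Xaf1 and Parp14. The rule by which the table lists an isoform was not stated, so no upper limit on these genes is given. Of the 22 listed members, 21 had a read in every library, 17 had at least 20 reads over the 4 libraries, and 10 had at least 10 reads in each. The members under 20 reads were Dhx58, Rsad2, Isg15, Usp18 and Ifi35, with 0 to 8 reads a library. Among them were Isg15, a ubiquitin-like protein induced by interferon, at 2, 4, 2 and 6 reads, and Usp18, which removes ISG15 from its targets, at 3, 5, 7 and 3. Rsad2 (viperin) had 0, 1, 5 and 3 reads, and its 0 in the control has an exact upper bound of 0.928 CPM (0.754 CPM by the limit of 3 counts).

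**Figure D1:**
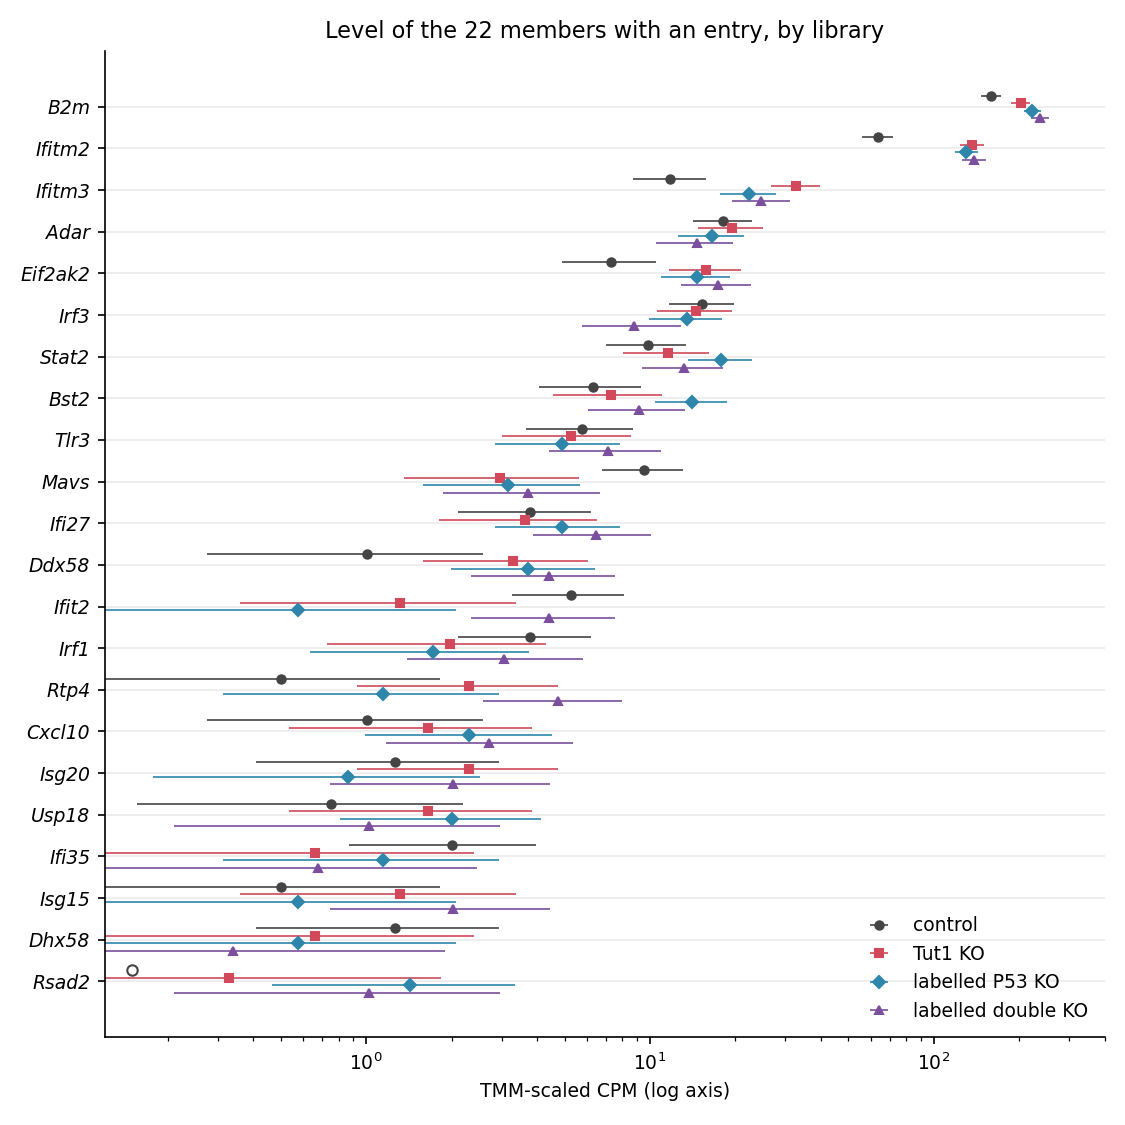
TMM-scaled CPM (log axis) of the 22 members with an entry, in 4 libraries, with exact 95% Poisson intervals cut at the left edge; the open circle marks Rsad2 at 0 in the control, placed at the edge. Ifitm2, Ifitm3 and Eif2ak2 lay higher in all 3 libraries with Cre mRNA than in the control, Mavs lay lower, and most members below 5 CPM overlapped.

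With the 3 libraries that received Cre mRNA set against the control, 3 members were higher and 1 was lower, of 14 that passed the filter on low counts. The higher ones were Ifitm2, Ifitm3 and Eif2ak2 and the lower one was Mavs. edgeR's quasi-likelihood test called 7.94% of all 9882 genes higher and 8.4% lower in the same fit, at a Benjamini-Hochberg adjusted p (FDR) under 0.05 and a change of at least 2-fold. The median log2 fold change of the 14 members was 0.44 and that of all genes -0.01. Of the 14, 8 lay above 0 and 6 below. The 3 libraries differ in genotype and the lone control was assumed to vary like them. Leaving out Tut1 KO reduced the members called to 0, with FDRs of 0.0644 for Ifitm2, 0.158 for Ifitm3, 0.134 for Eif2ak2 and 0.0902 for Mavs, at log2 fold changes of 1.09, 0.99, 1.12 and -1.47. Leaving out the library labelled double KO added Ifit2 to the calls. Without that library, Eif2s3y reads were present only in the control, so Cre mRNA and sex cannot be told apart in that fit. The fit without Tut1 KO called 9.54% of all genes and that without the library labelled double KO 21.9%, against 16.3% with all libraries. DESeq2 called only Ifitm2 of the 14 members, against 9.87% of all genes. In DESeq2 the FDRs were 0.093 for Ifitm3, 0.192 for Eif2ak2 and 0.211 for Mavs. Scaled by library totals in place of TMM, the log2 ratios of all genes to the control rose by 0.12 to 0.14 at the median, and edgeR called 981 genes higher and 649 lower where TMM gave 785 and 830, with the same 4 members among them. Markers differed in the same fit. Of 10 neural stem cell genes tested, 3 were called higher: Hes1 (log2 fold change 1.65, FDR 0.0013), Sox9 (1.14, FDR 0.0173) and Emx2 (1.24, FDR 0.0306). Nes (0.92, FDR 0.0364) and Vim (-0.92, FDR 0.0076) were under 2-fold, and Fabp7 was at 0.05 (FDR 0.861). The astrocyte gene Aldh1l1 was called lower (-2.14, FDR 0.0362), while S100b was at 0.99 (FDR 0.283). The share of reads that name no gene was 27.3% to 30.2% with Cre mRNA against 17.2%. The part of these differences in the member calls was not tested.

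**Figure D2:**
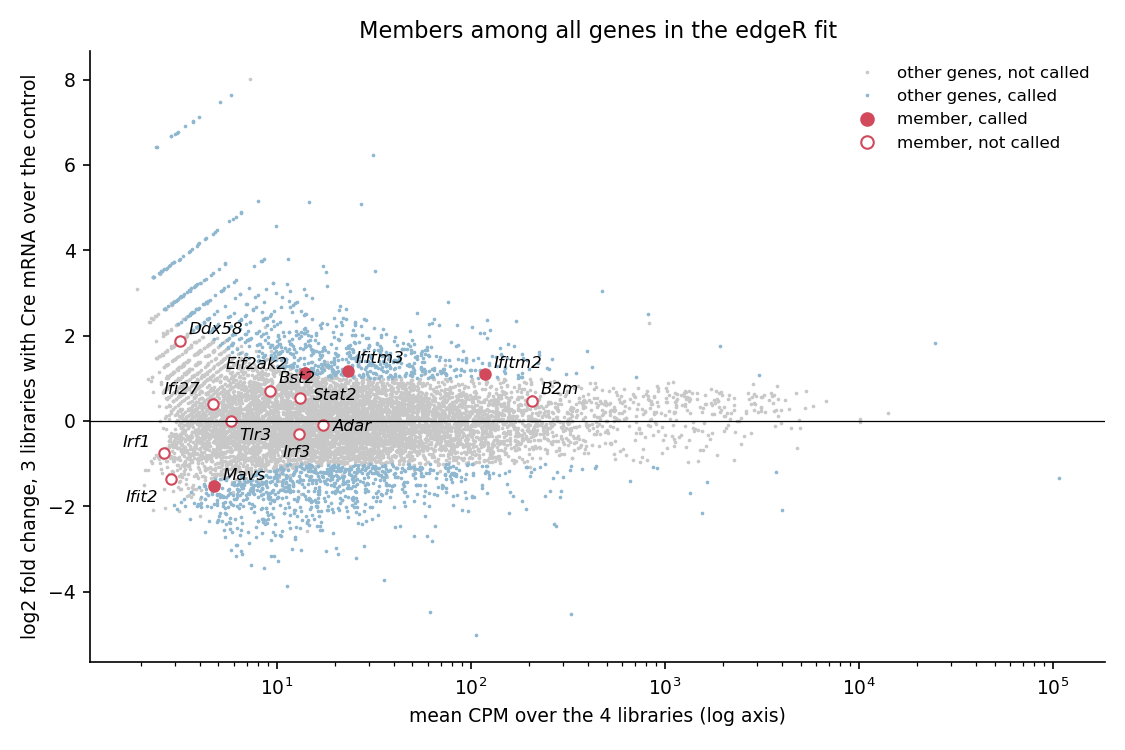
Log2 fold change of the 3 libraries with Cre mRNA over the control from edgeR (vertical) against mean CPM (log axis) for the 9882 genes tested; red circles are the 14 members, filled where called. The 4 called members, Ifitm2, Ifitm3, Eif2ak2 and Mavs, have log2 fold changes of 1.09, 1.17, 1.12 and -1.53, within the range of the other called genes.

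Effectors at membranes and virus particles had 324 reads in the control and 535, 586 and 514 with Cre mRNA, most of them from Ifitm2, or 76.3, 180, 171 and 180 per 1e6 gene reads. IFITM2 and IFITM3 sit in cell and endosomal membranes and hinder the fusion of entering viruses. Ifitm2 (ENSMUSG00000060591, chr7:140954837-140955987, minus strand) had 252 reads in the control, 413 in Tut1 KO, 454 in the library labelled P53 KO and 411 in the library labelled double KO. These were 63.4 CPM (55.8 to 71.7), 136 (124 to 150), 130 (119 to 143) and 139 (126 to 153). Every library with Cre mRNA lay above the control with separate intervals, and those 3 lay close together. Its log2 fold change was 1.09 (SE 0.24, FDR 0.0106).

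Ifitm3 (ENSMUSG00000025492, chr7:141009586-141010770, minus strand) had 47, 99, 78 and 73 reads in the same order, or 11.8 CPM (8.68 to 15.7), 32.7 (26.6 to 39.8), 22.4 (17.7 to 27.9) and 24.7 (19.4 to 31.1). The control was again the lowest with no overlap, and the log2 fold change was 1.17 (SE 0.347, FDR 0.0369). Transcripts Ifitm2 (655 bases) and Ifitm3 (678 bases) are 78.7% identical over 615 aligned bases in GENCODE M21, with a longest shared run of 69 bases. How the table assigned a read that matches both was not stated, and Gm45717 overlaps Ifitm2 on the same strand, so the separate values carry that uncertainty. Bst2 (tetherin), which holds budding virions at the cell surface, had 25, 22, 49 and 27 reads. It was high in the library labelled P53 KO alone, at 14.1 CPM (10.4 to 18.6) against 6.29 (4.07 to 9.28) in the control, and edgeR did not call it over the 3 libraries (log2 fold change 0.70, SE 0.46, FDR 0.301). Rsad2 stands above, and Mx1 and Mx2 were not listed.

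Among effectors directed at RNA, 4 of 11 were listed, 3 were tested and 1 was called. Eif2ak2 (PKR; ENSMUSG00000024079, chr17:78852564-78882573, minus strand), the kinase that halts translation when it binds double-stranded RNA, had 29, 48, 51 and 51 reads. Its level was 7.29 CPM (4.88 to 10.5) in the control, 15.8 (11.7 to 21) in Tut1 KO, 14.6 (10.9 to 19.2) in the library labelled P53 KO and 17.3 (12.9 to 22.7) in the library labelled double KO. The log2 fold change was 1.12 (SE 0.358, FDR 0.048), and all 3 libraries lay above the control. Without the filter on low counts its FDR was 0.0586. An entry named as a variant of the coding transcript Eif2ak2-201 held 29, 47, 50 and 51 of its reads. The retained intron transcript Eif2ak2-204 held the remaining 0, 1, 1 and 0, so the difference lay in the variant entry.

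Ifit2, whose product binds RNA and limits translation of viral messages, was low in part of the libraries. It had 21 reads in the control, 4 in Tut1 KO, 2 in the library labelled P53 KO and 13 in the library labelled double KO. Its log2 ratios to the control were -2.0 (-4.00 to -0.43), -3.20 (-6.34 to -1.17) and -0.26 (-1.38 to 0.80). Low values in 2 libraries and a level near the control in the last gave no call (log2 fold change -1.36, SE 0.73, FDR 0.208). Entries that name no gene inside the Ifit2 locus held another 21, 27, 20 and 19 reads, with log2 ratios to the control of 0.76 (-0.12 to 1.65), 0.12 (-0.84 to 1.08) and 0.29 (-0.69 to 1.25). They are not in the gene sum and did not share its low values. Adar, which edits adenosine to inosine in double-stranded RNA and keeps self RNA from sensors, had 72, 59, 58 and 43 reads, a log2 fold change of -0.10 (SE 0.312, FDR 0.852). All its reads were assigned to Adar-202, a transcript with 2790 coding bases. The exonuclease gene Isg20 had 5, 7, 3 and 6 reads and was not tested.

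Mavs (ENSMUSG00000037523, chr2:131234063-131248025, plus strand) encodes the mitochondrial adaptor on which RIG-I and MDA5 converge, and was the only member called lower. It had 38 reads in the control, 9 in Tut1 KO, 11 in the library labelled P53 KO and 11 in the library labelled double KO. In CPM these were 9.55 (6.76 to 13.1), 2.97 (1.36 to 5.64), 3.16 (1.58 to 5.65) and 3.73 (1.86 to 6.67). All 3 libraries with Cre mRNA lay below the control without overlap. The log2 fold change was -1.53 (SE 0.427, FDR 0.0284). Reads of the coding transcript Mavs-201 went from 24 to 3, 4 and 8. Entries that name no gene inside the locus held another 8, 8, 14 and 6 reads, which are not in the gene sum.

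Of the listed RNA sensors, Ddx58 and Dhx58 had few reads. Ddx58 (RIG-I), which recognises RNA with a 5′ triphosphate, had 4 reads in the control and 10, 13 and 13 in the libraries with Cre mRNA, in the order above. Its log2 ratios were 1.71 (-0.08 to 3.84), 1.89 (0.20 to 3.97) and 2.13 (0.44 to 4.21), and edgeR gave 1.88 (SE 0.691, FDR 0.0763), which did not pass. Every Ddx58 read came from Ddx58-207, a processed transcript with 0 coding bases. Tlr3, the endosomal sensor of double-stranded RNA, had 23, 16, 17 and 21 reads and a log2 fold change of -0.01 (SE 0.452, FDR 0.988). Dhx58 (LGP2), which modulates the helicase sensors, had 5, 2, 2 and 1 reads.

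None of the 3 listed transcription factors was called for gene level. Irf3, the factor activated directly below the sensors, had 61, 44, 47 and 26 reads (log2 fold change -0.32, SE 0.358, FDR 0.561). Stat2, a subunit of the ISRE-binding complex, had 39, 35, 62 and 39 reads (0.54, SE 0.374, FDR 0.329). Irf1 had 15, 6, 6 and 9 reads (-0.75, SE 0.58, FDR 0.384).

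B2m, the light chain of MHC class I, had 631, 614, 775 and 699 reads. Its CPM was 159 (147 to 172) in the control, 203 (187 to 219) in Tut1 KO, 222 (207 to 239) in the library labelled P53 KO and 237 (220 to 255) in the library labelled double KO. The control was lowest and its interval was separate from the others, but edgeR did not call the difference (log2 fold change 0.48, SE 0.221, FDR 0.148). Cxcl10, a chemokine that recruits T cells and is induced by interferon, had 4, 5, 8 and 8 reads and was not tested. Ifi27 had 15, 11, 17 and 19 reads (0.40, SE 0.52, FDR 0.623). Rtp4, a chaperone of receptor transport that interferon induces, had 2, 7, 4 and 14 reads. The library labelled double KO lay above the control for Rtp4 by a log2 ratio of 3.24 (1.12 to 6.42), but the gene was below the filter and not tested.

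Library by library, a member was counted as different when its CPM ratio was at least 2-fold with an exact 95% interval that excluded no change, a description of 2 libraries without a test. Tut1 KO had 3 members higher than the control (Eif2ak2, Ifitm2 and Ifitm3) and 2 lower (Mavs and Ifit2), against 12.7% and 13.3% of all genes. The library labelled P53 KO had 4 higher (Ddx58, Eif2ak2, Ifitm2 and Bst2), against 12.5%, and 2 lower (Mavs and Ifit2), against 15.3%. The library labelled double KO had 4 higher (Ddx58, Eif2ak2, Ifitm2 and Ifitm3), against 10.3%, and 1 lower (Mavs), against 9.76%. Ddx58, with 4 reads in the control and 10, 13 and 13 in the others, passed the filter only through the libraries in which it was high, and Ifit2 only through the control and the library labelled double KO, so their places in these counts are no support. These comparisons share the control library, so a member that recurs in them is not seen independently. Ifitm3 in the library labelled P53 KO had a log2 ratio of 0.92 (0.38 to 1.48), just under the fold threshold, and Eif2ak2 there 1.01 (0.32 to 1.72), just over it.

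**Figure D3:**
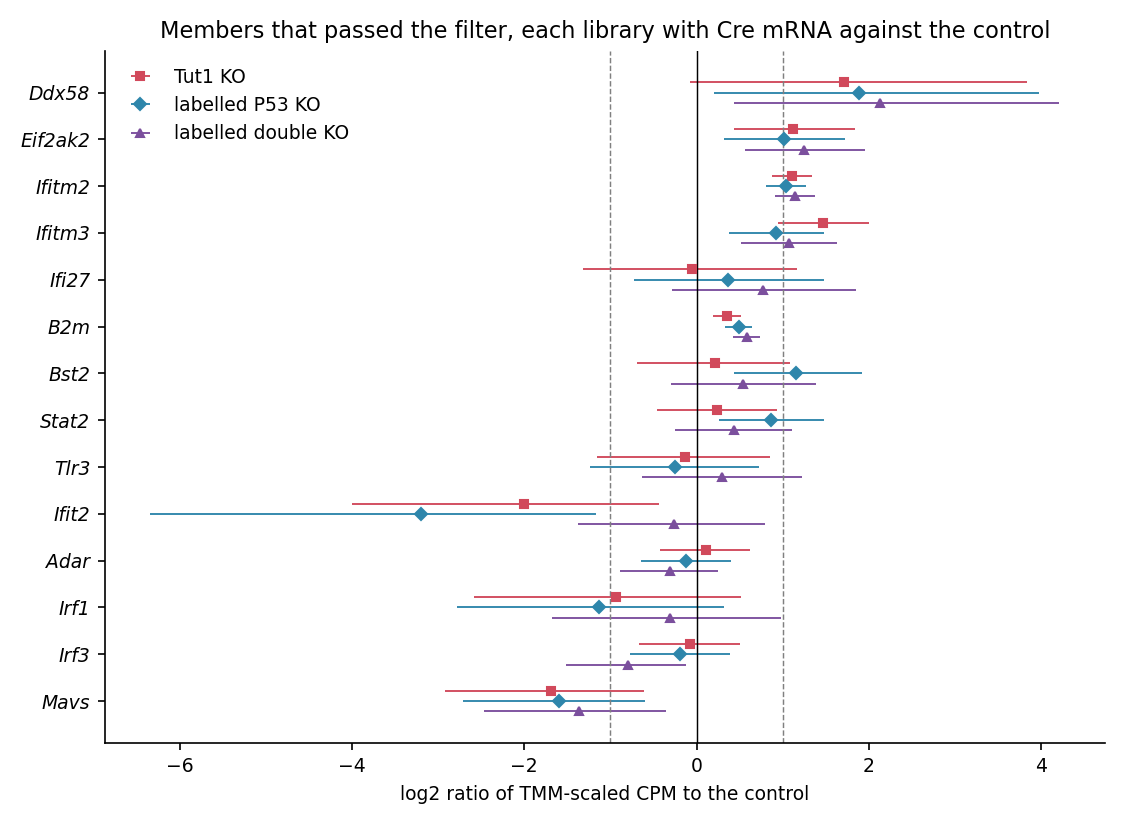
Log2 ratio of TMM-scaled CPM to the control for the 14 members that passed the filter, with exact 95% intervals, in each of the 3 libraries with Cre mRNA; dashed lines mark 2-fold. Eif2ak2 and Ifitm2 lie to the right of 2-fold in all 3 libraries and Mavs to the left, while Ifit2 is low in 2 libraries and at -0.26 in the library labelled double KO.

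Members were also compared among the libraries with Cre mRNA, and the counts lay near the shares of all genes. Between the libraries labelled P53 KO and Tut1 KO, 0 of 14 members passed the ratio rule, against 3.35% of all genes. The library labelled double KO differed from Tut1 KO in 1 member, against 4.49%, and from the library labelled P53 KO in 1, against 7.24%. It was Ifit2 both times, with log2 ratios of 1.74 and 2.94 for 13 reads against 4 and 2. Since Ifit2 passed the filter through the control and the library labelled double KO, in which it was high, these counts are no support either. In edgeR's additive model, 0 members were called for Tut1 status and 0 for Trp53 status, against 0% and 0.0101% of all genes. For both, 0 members had an unadjusted p under 0.05, DESeq2 called 0, and 187 and 153 of all genes had an unadjusted p under 0.05 in edgeR. That model has 1 residual degree of freedom, and total Tut1 reads did not follow the Tut1 label.

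Of the 112 other genes of the pathway, 7 were called, 4 higher and 3 lower. None of 8 interferon ligand genes was listed. Of the 112, 69 were listed and 52 tested, and edgeR's calls in the libraries with Cre mRNA stood against 7.94% and 8.4% of all genes, with a median log2 fold change of -0.11, in the same fit as the members. The higher ones were Tax1bp1 (392, 647, 644 and 587 reads; log2 fold change 1.01, SE 0.233, FDR 0.0127), an autophagy receptor that restrains MAVS signalling, and Irf2 (79, 130, 199 and 120 reads; 1.24, SE 0.315, FDR 0.0195), a factor that competes with IRF1. Jak2, a kinase of cytokine receptors, had 39, 71, 79 and 59 reads (1.17, SE 0.33, FDR 0.0304). Skiv2l, an RNA helicase of the cytosolic exosome, had 34, 58, 88 and 44 reads (1.21, SE 0.39, FDR 0.0489). The lower ones were Azi2 (81, 21, 38 and 16 reads; -1.37, SE 0.379, FDR 0.0273), an adaptor of the kinase TBK1, Ifnar2 (76, 27, 35 and 28 reads; -1.01, SE 0.316, FDR 0.0452), a subunit of the type I interferon receptor, and Gbp3 (64, 28, 21 and 18 reads; -1.18, SE 0.369, FDR 0.0449), an interferon-induced GTPase. Leaving out Tut1 KO reduced these 7 calls to 0, and leaving out the library labelled double KO raised them to 11, in fits that called 9.54% and 21.9% of all genes. DESeq2, which called 9.87% of all genes, called only Irf2 of the 7 (FDR 0.0236). Tax1bp1 there was just under 2-fold (log2 fold change 0.99, FDR 0.00502), and the other FDRs ran from 0.109 for Jak2 to 0.226 for Ifnar2. By the ratio rule 6, 3 and 6 of the 52 were higher and 8, 8 and 5 lower, in the order Tut1 KO, P53 KO and double KO. Of all genes, 12.7%, 12.5% and 10.3% were higher and 13.3%, 15.3% and 9.76% lower. Trim21 (8, 17, 9 and 16 reads) passed the filter only through Tut1 KO and the library labelled double KO, in which it was high. Tap2 (20, 2, 9 and 9) and Tapbp (21, 8, 6 and 11) passed only through the control, in which they were high, and the library labelled double KO. The places of these genes in the counts are no support. Irf2 and Jak2 were higher by the ratio rule in all 3 libraries. Irgm1, an interferon-induced GTPase gene below the filter, was lower by it in all 3, with 26, 7, 10 and 6 reads and log2 ratios of -1.5 (-2.95 to -0.26), -1.19 (-2.40 to -0.09) and -1.68 (-3.26 to -0.37).

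Because the study concerns splicing, the isoform make-up of the members was compared with an exact test on reads (Fisher, two-sided), which compares 2 libraries and not conditions. Between 9 and 10 isoforms of 4 or 5 member genes had enough reads in a pair, and a call needed usage to shift by 10 points or more at an FDR under 0.05. Against the control, 2 isoforms were called in Tut1 KO (against 8.66% of all isoforms tested), 0 in the library labelled P53 KO (against 9.12%) and 1 in the library labelled double KO (against 6.49%), and between the libraries labelled P53 KO and double KO 0 were called (against 1.24%). All called isoforms belonged to Irf3 (chr7:44997648-45002848, plus strand). An entry named as a variant of the coding transcript Irf3-201, which has 8 exons, had 19 of 61 reads in the control (31.1%, 95% Wilson interval 20.9 to 43.6), 3 of 44 in Tut1 KO (6.82%, 2.35 to 18.2), 11 of 47 in the library labelled P53 KO (23.4%, 13.6 to 37.2) and 1 of 26 in the library labelled double KO (3.85%, 0.682 to 18.9). Its FDRs against the control were 0.0263, 0.697 and 0.0465. Irf3-212, annotated as a retained intron and made of 1 exon at the 5′ end of the gene (chr7:44997687-44998321), held 20, 28, 19 and 16 reads, or 32.8% (22.3 to 45.3), 63.6% (48.9 to 76.2), 40.4% (27.6 to 54.7) and 61.5% (42.5 to 77.6). It was called in Tut1 KO (FDR 0.0244) and not in the library labelled double KO (FDR 0.115).

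Summed over its 3 retained intron transcripts, Irf3 was at 63.9% (51.4 to 74.8) in the control, 90.9% (78.8 to 96.4) in Tut1 KO, 74.5% (60.5 to 84.7) in the library labelled P53 KO and 96.2% (81.1 to 99.3) in the library labelled double KO. That sum was formed after the isoforms had been seen and was not tested. The coding share was lower in both libraries labelled as lacking Tut1 than in the others, at 26 to 61 reads a library. Against the library labelled P53 KO, the coding variant in the library labelled double KO was 19.6 points lower (p = 0.0457 by the exact test, FDR 0.388), which did not pass. Bcl2l12 overlaps Irf3 on the other strand, and whether the table used strand was not stated. With genes of at least 50 reads in each library required, Irf3 was not tested. Stat2, with 1, 2, 4 and 7 reads of its retained intron transcript Stat2-206 (2.56%, 5.71%, 6.45% and 17.9% of its reads), had no isoform called.

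**Figure D4:**
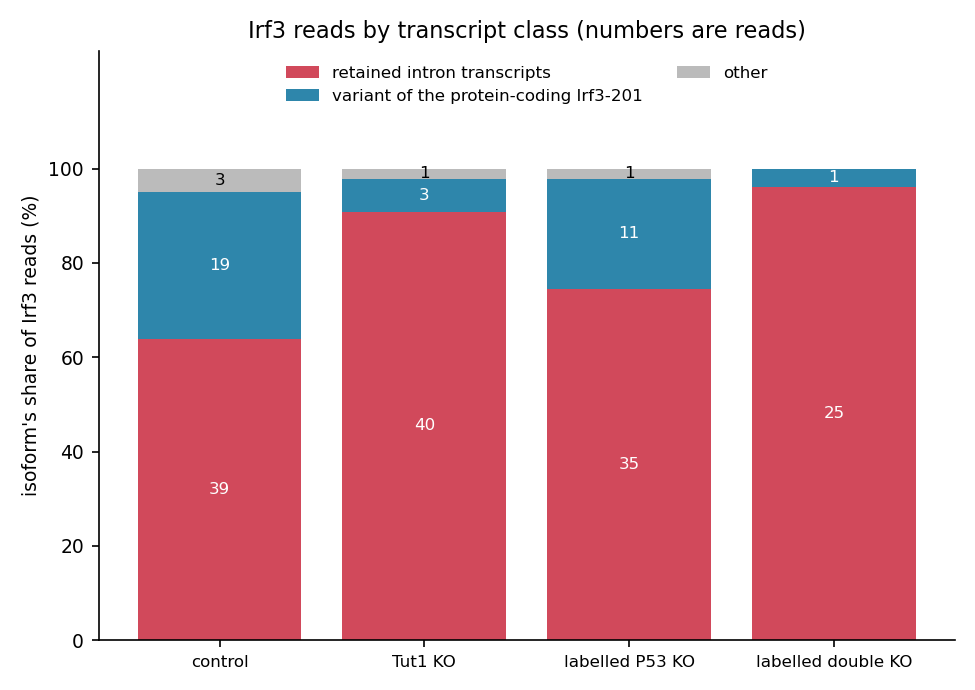
Share of Irf3 reads (%) by transcript class in each library, with the number of reads on the bars; red is the sum of 3 retained intron transcripts and blue the variant of the coding Irf3-201. The blue part is 31.1% in the control and 23.4% in the library labelled P53 KO, and 6.82% and 3.85% in the libraries labelled as lacking Tut1.

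Entries that name a position and no gene also lay inside member loci, with at least 20 reads over the 4 libraries in 10 of them. By the ratio rule their reads were higher than in the control at 5 of 10 loci in Tut1 KO, 4 in the library labelled P53 KO and 3 in the library labelled double KO. Over the loci of all genes the shares were 53%, 48.9% and 45%, and the members' shares were near or below these. The Adar locus had 12 such entries with 11 reads in the control, 78 in Tut1 KO, 63 in the library labelled P53 KO and 77 in the library labelled double KO, where reads that name Adar were 72, 59, 58 and 43. The pair of entries at position 89727000 of chr3 gave 1, 16, 16 and 13 reads and 0, 33, 24 and 37 reads, and the 1000 bases from that position lie in an Adar intron. Parp14, not listed as a gene, had 1 entry with 9, 24, 26 and 39 reads. Oasl1, also not listed, had 2 entries with 14, 23, 27 and 29 reads. Positions are given in steps of 1000 bases without an end or strand, so these reads were not added to any gene.

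**Figure D5:**
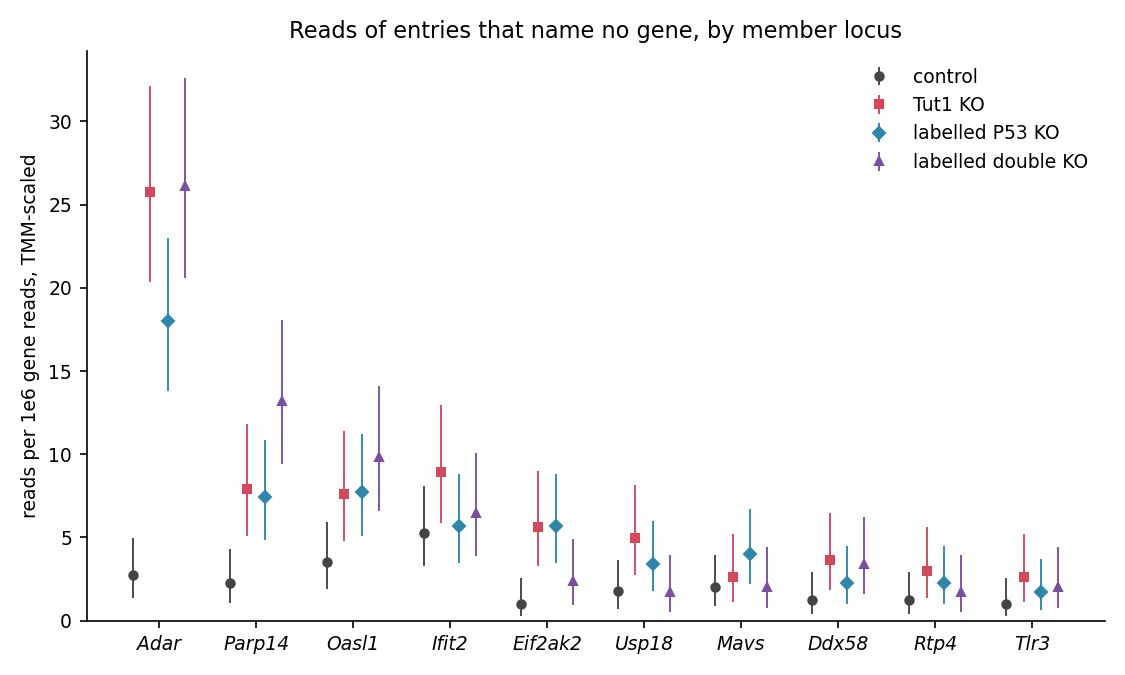
Reads of entries that name no gene, per 1e6 gene reads after TMM scaling, with exact 95% Poisson intervals, for the 10 member loci with at least 20 such reads. In the Adar locus all 3 libraries with Cre mRNA lie above the control without overlap, and at Mavs, Rtp4 and Ifit2 the intervals overlap.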

How the data were processed

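The authors deposited 1 table of read counts per isoform, not normalized, with 1 column for each of the 4 libraries of neural stem cells (cDNA-PCR, Nanopore). The labels name mm10. The aligner, counter, strand handling and listing rule for the table were not given in the sources used here, and the authors' tools are stated for dissected pallium only. Gene counts were isoform counts summed by Ensembl identifier, with symbols from GENCODE M21 (GRCm38). Of 255164 entries, 208527 named a position and no gene. These 17.2% to 30.2% of reads stayed out of library sizes and tests. The members and lists were chosen with earlier results of these data known.

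TMM factors (0.937, 1.02, 1.02 and 1.03) used all genes. edgeR 4.0.16 (R 4.3.3) with filterByExpr kept 9882 genes, and compared the 3 libraries with Cre mRNA against the control (2 residual degrees of freedom, genotype inside the spread) or fitted Tut1 plus Trp53 status (1). Genes were called at FDR under 0.05 and 2-fold, and SEs were derived from F. DESeq2 1.42.0 was the alternative. With 1 library per group, p-values measure the spread between these libraries only. Ratios of 2 libraries carry exact conditional 95% intervals. Isoforms with 10 reads in a pair, in genes with 20 reads in each library, were compared with Fisher's exact test over all isoforms (FDR under 0.05, 10 points). PCR reads are not independent molecules, so intervals cover counting error only. Members with at least 20 reads are given in every library. Pathway genes were named where edgeR called them or all 3 libraries passed the ratio rule in 1 direction, whether or not they passed the filter.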

Additional observations from a re-analysis of the deposited data

Results flagged for a closer look

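Ifit2 had log2 ratios of opposite sign in pairs of libraries that carry the same label difference. For the Tut1 label its log2 ratio was -2.0 in Tut1 KO against the control and 2.94 in the library labelled double KO against the library labelled P53 KO. For the Trp53 label it was -3.20 in the library labelled P53 KO against the control and 1.74 in the library labelled double KO against Tut1 KO. Ifit2 passed the filter on low counts only through the control and the library labelled double KO, in which it was high. These ratios are therefore no support. The counts were 21, 4, 2 and 13 reads. Entries that name no gene in the Ifit2 locus, which are not in these counts, held 21, 27, 20 and 19 reads and lacked the low values of Tut1 KO and the library labelled P53 KO. Pnpt1 and Prkra of the wider pathway list, named here after their values were seen, had log2 ratios of opposite sign too. Pnpt1, a mitochondrial RNA exonuclease gene, had log2 ratios of -1.66 and 1.15 for the Tut1 label and -1.53 and 1.28 for the Trp53 label. Prkra, which encodes an activator of PKR, had -1.03 and 1.06 for the Trp53 label. With 1 library per group these differences between pairs were not tested. The control and the library labelled double KO, the higher pair for Ifit2 and Pnpt1, also share the absence of Xist reads and the presence of Eif2s3y reads. Of the listed astrocyte genes, Aldh1l1 was also higher in that pair, with 187, 16, 11 and 71 reads. S100b (10, 16, 10 and 21 reads) and Aqp4 (0, 4, 3 and 1) did not follow that pair. The part of sex or of astrocyte content in these values was not tested.

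Reads of entries that name no gene, which enter no comparison of gene levels, were at least 2-fold above the control, with an exact 95% interval that excluded no change, at 3 of 10 member loci in all libraries with Cre mRNA. Library by library, 53%, 48.9% and 45% of the loci of all genes were higher by that rule, and the members' shares were near or below these. The share of all loci higher in all 3 libraries at once was not computed, so the 3 of 10 has no matching share. In the order Tut1 KO, P53 KO and double KO, the log2 ratios were 3.22, 2.71 and 3.24 in the Adar locus, 1.81, 1.72 and 2.55 in the Parp14 locus and 1.11, 1.14 and 1.48 in the Oasl1 locus. The median over the loci of all genes was 1.26, 1.17 and 1.09. Oasl1 lay near that median in the first 2 libraries, and Adar and Parp14 lay above it in all 3.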

How the results depend on the processing

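Of 64 recomputed counts, 50 kept within 1.5 times their value and 14 moved. Among the 4 called members, 16 alternative values kept their call, 8 lost it and 0 changed direction. Leaving out 1 library with Cre mRNA at a time gave 0 to 5 members and 0 to 11 other pathway genes called by edgeR, where all libraries gave 4 and 7, and both counts of 0 came without Tut1 KO. DESeq2 called 1 member and 1 other pathway gene, against 9.87% of all genes. With plain Ensembl transcripts only, members different from the control in the library labelled double KO went from 5 to 3, and pathway genes in the library labelled P53 KO from 11 to 7. A threshold of 1.5-fold gave 2 members between the libraries labelled P53 KO and Tut1 KO in place of 0, and 22, 17 and 17 pathway genes against the control in place of 14, 11 and 11. With no filter on low counts, 2 members in place of 1 separated the libraries labelled double KO and P53 KO. With genes of at least 50 reads required, the member isoforms called fell to 0 in Tut1 KO and to 0 in the library labelled double KO. Why these counts moved was not tested, apart from the smaller number of genes or reads that such settings leave. No paired analysis was possible because each group has 1 library. The 8 members below the filter had 0 to 14 reads a library, and no edgeR test was made for them.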
